A study of Mus musculus with 6 samples.

Results

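The 10 genes described here encode enzymes that take apart purine and pyrimidine bases and nucleosides: Upp1, Upp2, Cda, Dpyd, Dpys and Upb1 for pyrimidines, and Pnp, Xdh, Uox and Urah for purines, with Pnp acting on purine nucleosides. They were chosen by gene symbol, and all 10 are among the 52459 genes of the count table and the 17032 genes that passed the filter on low counts. Upp2, Uox and Urah were picked because their rise in the same comparison had been noticed, so their values are given as a description without a test. The 7 other genes were listed with earlier results of these data known.

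RNA-Seq was performed on livers of 6 male C57BL6J mice of the Alb-Cre/Cas9 F1 generation, each 8 months old, with 1 liver per mouse. Cas9 was expressed under the albumin promoter's Cre, so that editing was directed to hepatocytes. Hepatocytes that the vector did not reach and other liver cells can keep Prdx2, and the counts do not tell them apart. At 4 to 5 weeks of age 3 mice received an AAV8 vector with a control guide RNA (sgCtrl, mice 5.1, 7.1 and 7.2) and 3 a vector with a guide RNA against Prdx2, the gene of the peroxide-reducing enzyme peroxiredoxin 2 (sgPrdx2, mice 1.1, 1.3 and 3.2). All 6 mice, controls included, were given 100 mg/kg of the liver carcinogen diethylnitrosamine 3 weeks later and, from 1 week after that, 6 months of a high-fat diet low in choline. No untreated liver was compared.

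Pyrimidine breakdown runs from cytidine to uridine (Cda), from uridine to uracil (Upp1 and Upp2), and from uracil through ring reduction (Dpyd), ring opening (Dpys) and release of ammonia (Upb1) to beta-alanine. Purine breakdown runs from the nucleosides to free bases (Pnp), to urate by xanthine oxidoreductase (Xdh), and in mice, which keep a working urate oxidase (Uox), on through hydroxyisourate hydrolase (Urah) and the decarboxylase Urad to allantoin. The genes lie on different chromosomes or far apart (GRCm38, GENCODE M21): Upp1 at chr11:9118103-9136170, Upp2 at chr2:58567298-58792971, Cda at chr4:138338424-138367992, Dpyd at chr3:118562129-119432924, Dpys at chr15:39768487-39857470, Upb1 at chr10:75401115-75441679, Pnp at chr14:50931082-50965237, Xdh at chr17:73883895-73950196, Uox at chr3:146570426-146632305 and Urah at chr7:140835018-140837966. The liver is a main site of both routes, and humans lack a working urate oxidase.

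The promoter windows of Upp2 are shown because this gene had the largest difference of the 10 and RefSeq (build GRCm38.p6) gives it 2 start sites that differ in base composition. Each window holds 250 bases before the start and 50 after it, read 5′ to 3′ on the plus strand, with capitals for a match to a searched motif. The upstream window lies at chr2:58567084-58567383 and the downstream one at chr2:58754934-58755233.
Upp2, upstream start: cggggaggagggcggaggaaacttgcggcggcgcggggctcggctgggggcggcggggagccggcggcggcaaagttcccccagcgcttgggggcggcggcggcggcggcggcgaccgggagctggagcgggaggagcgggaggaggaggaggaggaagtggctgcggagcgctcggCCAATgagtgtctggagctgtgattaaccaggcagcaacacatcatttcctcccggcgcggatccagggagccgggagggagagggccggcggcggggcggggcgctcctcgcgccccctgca
Upp2, downstream start: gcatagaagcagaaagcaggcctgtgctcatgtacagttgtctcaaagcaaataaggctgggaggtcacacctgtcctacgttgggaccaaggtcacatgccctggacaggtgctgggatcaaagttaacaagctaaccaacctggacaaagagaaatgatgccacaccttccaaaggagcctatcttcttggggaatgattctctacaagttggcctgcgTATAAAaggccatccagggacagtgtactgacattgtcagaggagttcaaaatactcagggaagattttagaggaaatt
The upstream window holds 37 CpG sites, more than 94.4% of the 32851 RefSeq promoter windows of mouse genes, and a CCAAT match in capitals. The downstream window holds 2 CpG sites and a TATAAA match that begins 29 bases before the start. The counts were summed per gene and do not separate reads from the 2 starts.

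The windows of Uox (chr3:146596899-146597198, plus strand) and Upb1 (chr10:75406661-75406960, plus strand) are shown because Uox was the most abundant of the 10 genes and Upb1 had the smallest adjusted p of the 7 tested.
Uox: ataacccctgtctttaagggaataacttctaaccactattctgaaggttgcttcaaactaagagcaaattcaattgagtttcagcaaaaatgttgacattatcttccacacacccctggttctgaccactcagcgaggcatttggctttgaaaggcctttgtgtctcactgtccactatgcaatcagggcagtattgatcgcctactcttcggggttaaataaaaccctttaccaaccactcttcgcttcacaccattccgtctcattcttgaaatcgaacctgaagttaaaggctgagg
Upb1: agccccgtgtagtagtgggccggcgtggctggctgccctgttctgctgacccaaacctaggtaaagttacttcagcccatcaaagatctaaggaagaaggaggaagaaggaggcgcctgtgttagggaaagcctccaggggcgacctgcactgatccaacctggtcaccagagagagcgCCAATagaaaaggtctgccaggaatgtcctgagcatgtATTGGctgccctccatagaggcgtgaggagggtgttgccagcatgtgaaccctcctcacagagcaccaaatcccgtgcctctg
Motifs were searched on both strands, and matches were allowed to overlap. TATAAA occurred in 13.6% of all windows, CCAAT in 37.4%, TTGCGCAA (C/EBP) in 0.183%, CAAAGTCCA (HNF4) in 0.475% and GTTAATNAT (HNF1) in 0.801%. The Uox window holds 6 CpG sites and no match, and the Upb1 window holds 8 CpG sites and 2 CCAAT matches, the latter on opposite strands. Windows were found for 8 of the 10 genes, and none for Dpys and Xdh. Of the windows of these genes that are not printed here, only that of Pnp holds matches, to TTGCGCAA and to CCAAT. These matches describe letters in the windows only.

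Total counts ranged from 37462102 to 56865293 per liver, and 3 counts stood for 0.0555 to 0.0921 counts scaled to library size (CPM, normalized by the TMM method), for counting error only. Livers of a group differed by more than sampling noise (chi-square over its degrees of freedom 34.8 or more for each pair), so none was counted as a copy. The RNA of the targeted gene Prdx2 did not separate the groups. It was at 109, 117 and 132 CPM in the sgCtrl livers and at 99.0, 112 and 149 CPM in those labelled sgPrdx2 (log2 fold change 0.01, SE 0.18, adjusted p = 0.983 by edgeR's quasi-likelihood test). The RNA level thus gave no check of the labels, from which the groups were taken, and PRDX2 protein, which the study examined in liver sections, was not analysed here.

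Among the pyrimidine genes, the enzymes of ring opening and of the last step, Dpys and Upb1, were called higher in the livers labelled sgPrdx2. Dpyd, Upp1 and Cda did not pass the test, and Upp2, chosen for its rise, is described by its values. Upp2, which cleaves uridine in liver, was at 76.1, 58.9 and 76.7 CPM in sgCtrl and at 285, 249 and 189 CPM in sgPrdx2 livers. The groups were far apart, with the lowest sgPrdx2 liver well above the highest sgCtrl liver. The mean was 70.6 ± 10.2 CPM in sgCtrl and 241 ± 48.8 CPM in sgPrdx2 livers (SD, n = 3), a fitted 3.41-fold difference (log2 fold change 1.77, SE 0.20). Upp1, the other uridine phosphorylase, stood at 4.93, 4.56 and 5.29 CPM in sgCtrl and at 4.28, 3.64 and 4.21 CPM in sgPrdx2 livers. The groups did not overlap, sgPrdx2 being lower, yet the difference did not pass the test (log2 fold change -0.29, SE 0.16, adjusted p = 0.310). The coding sequences of Upp1 and Upp2 are 67.5% identical over 922 aligned bases, and no stretch of 50 bases of either gene occurs in another gene.

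**Figure D1:**
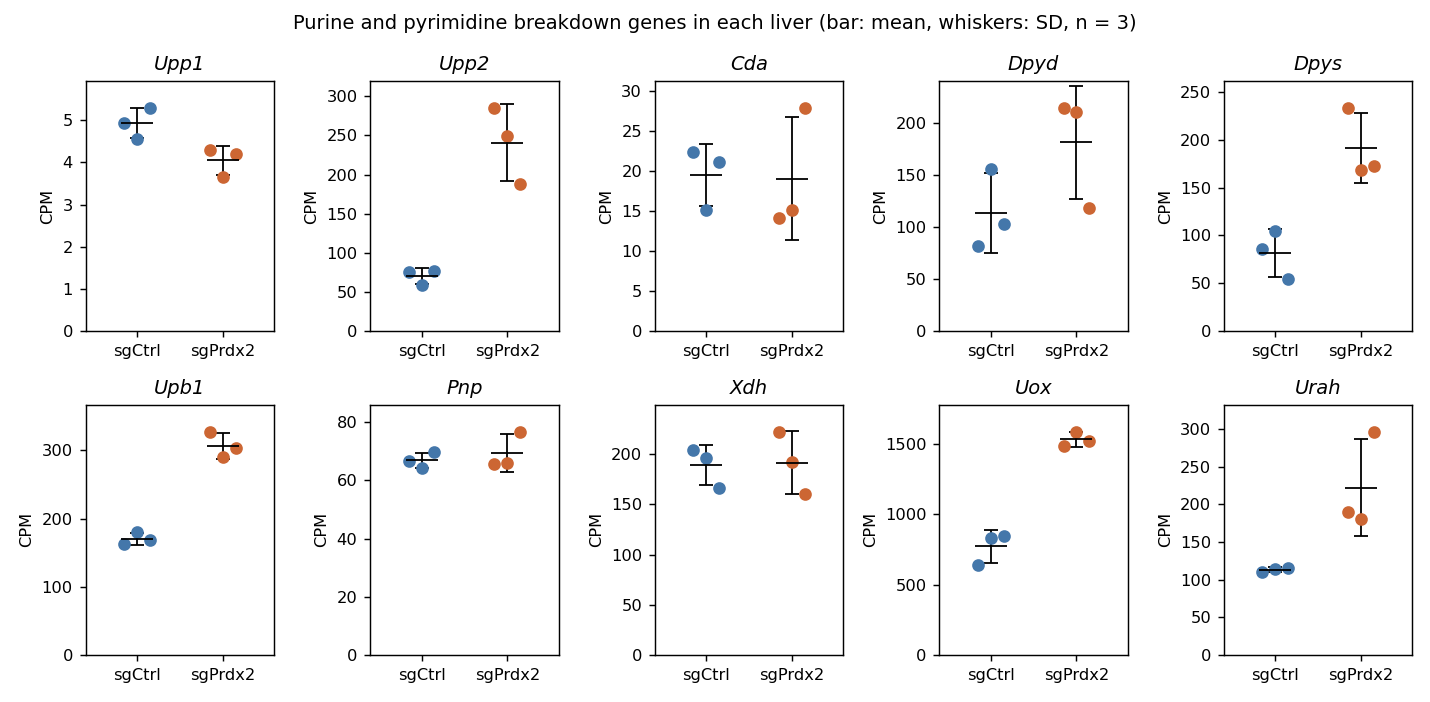
Normalized CPM (y axis from 0, each panel on its own scale) of the 10 genes in 3 sgCtrl (blue) and 3 sgPrdx2 (orange) livers, with the mean as a bar and the SD as whiskers. Upp2 lies between 58.9 and 76.7 CPM in sgCtrl and between 189 and 285 CPM in sgPrdx2 livers, whereas the groups of Cda, Pnp, Xdh and Dpyd overlap.

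Dpyd, the rate-limiting reductase of uracil and thymine breakdown, was at 81.9, 156 and 103 CPM in sgCtrl and at 215, 211 and 119 CPM in sgPrdx2 livers. The sgPrdx2 liver 3.2 fell within the sgCtrl range, and the difference did not pass the test (log2 fold change 0.68, SE 0.30, adjusted p = 0.211). Dpys, the dihydropyrimidinase that opens the ring, was at 85.7, 104 and 54.4 CPM in sgCtrl and at 233, 168 and 173 CPM in sgPrdx2 livers. Its groups were separate, and it rose 2.35-fold (log2 fold change 1.23, SE 0.25, adjusted p = 0.0471). Upb1, the beta-ureidopropionase of the last step, was at 163, 181 and 168 CPM in sgCtrl and at 328, 290 and 304 CPM in sgPrdx2 livers. Its livers lay close together within each group (SD 9.19 and 19.2 CPM), and it rose 1.80-fold (log2 fold change 0.85, SE 0.13, adjusted p = 0.0358). Cda, the cytidine deaminase, was at 22.4, 15.1 and 21.1 CPM in sgCtrl and at 14.1, 15.1 and 27.9 CPM in sgPrdx2 livers, with liver 3.2 the highest of the 6 (log2 fold change -0.04, SE 0.28, adjusted p = 0.939).

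Of the purine genes, Pnp and Xdh did not pass the test, and Uox and Urah, chosen for their rise, are described by their values. Pnp, the purine nucleoside phosphorylase, was at 66.9, 64.4 and 69.7 CPM in sgCtrl and at 65.6, 65.9 and 76.8 CPM in sgPrdx2 livers (log2 fold change 0.05, SE 0.12, adjusted p = 0.819). Xdh, which makes urate, was at 204, 196 and 166 CPM in sgCtrl and at 223, 192 and 160 CPM in sgPrdx2 livers (log2 fold change 0.02, SE 0.17, adjusted p = 0.951). Both genes overlapped between the groups. Of 50-base stretches of Pnp 18.9% also occur in other genes, Pnp2 among them, and of Xdh 7.14%, so that their counts may be split.

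Uox, the urate oxidase of peroxisomes, was at 639, 832 and 847 CPM in sgCtrl and at 1488, 1589 and 1522 CPM in sgPrdx2 livers. The sgPrdx2 livers differed little from each other (SD 51.6 CPM) and all lay above the sgCtrl livers, by 1.98-fold in the fit (log2 fold change 0.99, SE 0.16). Urah was at 110, 114 and 115 CPM in sgCtrl and at 189, 181 and 297 CPM in sgPrdx2 livers. The sgCtrl livers were close together (SD 2.95 CPM), and liver 3.2 stood above the other sgPrdx2 livers (log2 fold change 0.97, SE 0.21). Urah overlaps a gene on the opposite strand, C330022C24Rik, by 177 exonic bases, and the strand setting of the counting is not given in the sources used here.

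Of the 7 genes not noticed for their rise, 2 (Dpys and Upb1) were called higher at an adjusted p under 0.05 and none lower. Over all genes tested, 3.33% were called, 1.79% as higher and 1.54% as lower. In the 7 genes, 2 did not overlap with sgPrdx2 higher, beside 16.7% of all genes, and 1 did not overlap with sgPrdx2 lower, beside 17.5%. Their median log2 fold change was 0.05, beside -0.02 over all genes. DESeq2, which called 7.89% of the genes it adjusted as higher, also called these 2 of the 7. With counts scaled to the 6 housekeeping genes, neither was called by edgeR (adjusted p = 0.106 for Dpys and 0.0974 for Upb1), on a scale that put the median gene at -0.38 (log2).

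**Figure D2:**
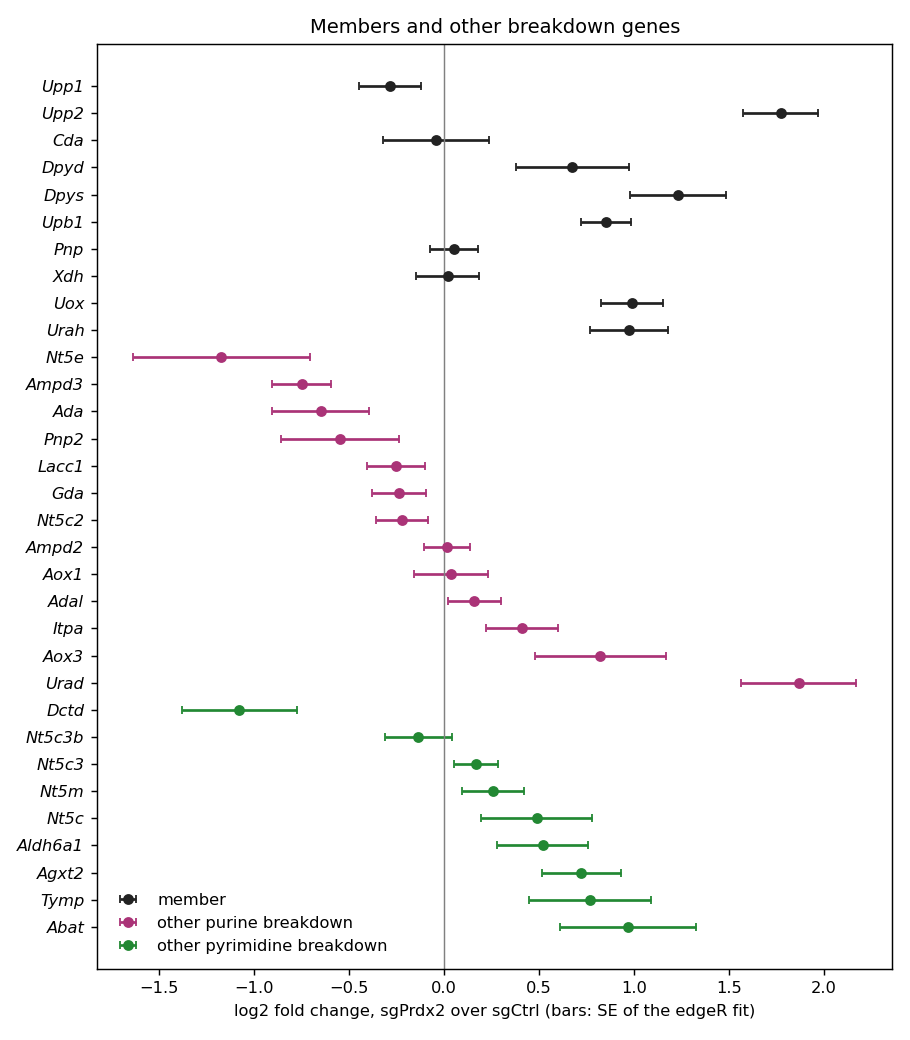
Fitted log2 fold change (x axis, sgPrdx2 over sgCtrl) with its standard error for the 10 genes (black) and for 22 other breakdown genes of purines (purple) and pyrimidines (green), on the y axis. Upp2 at 1.77 and Urad at 1.87 lie farthest to the right.

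Both calls were lost with 1 liver fewer in most fits. The adjusted p over the fits without 1 liver ranged from 0.0448 to 0.154 for Dpys and from 0.0376 to 0.144 for Upb1. Dpys passed only without sgCtrl liver 7.1, and Upb1 only without that liver or without sgPrdx2 liver 3.2. In 4 of the 6 fits no gene of the whole table was called by edgeR, while 3114 to 3993 genes had an unadjusted p under 0.05. Over all 6 fits the log2 fold changes stayed between 1.01 and 1.45 for Dpys and between 0.80 and 0.91 for Upb1.

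Per kilobase of the transcript with the longest coding sequence, Uox was the most abundant of the 10 genes in both groups, at 282 ± 42.3 CPM per kilobase in sgCtrl and 560 ± 18.8 in sgPrdx2 livers (SD, n = 3). Urah followed at 157 ± 4.11 and 309 ± 89.7, and Upb1 at 56.0 ± 3.02 and 101 ± 6.30. In sgCtrl livers Xdh, Dpys, Upp2, Dpyd, Cda and Pnp came next, at 41.1 to 22.8 CPM per kilobase, and each neighbour in this order overlapped with the next. Upp1 was the lowest in both groups, at 3.86 ± 0.286 and 3.17 ± 0.274 CPM per kilobase. In sgPrdx2 livers Upp2 stood in the fourth place, at 96.4 ± 19.5 CPM per kilobase, and its range overlapped with those of Upb1 and Dpys. With merged exons as the length the fourth place in sgPrdx2 livers was held by Upb1 and the fifth by Upp2.

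Ratios of 2 genes within a liver do not depend on the scaling of the libraries. There were 15.4, 12.9 and 14.5 reads on Upp2 for each read on Upp1 in the sgCtrl livers, and 66.6, 68.3 and 44.8 in the sgPrdx2 livers. Reads on Uox for each read on Xdh numbered 3.13, 4.23 and 5.097 in sgCtrl and 6.69, 8.28 and 9.50 in sgPrdx2 livers. Neither ratio overlapped between the groups. Reads on Dpyd for each read on Upp2 were 1.08, 2.65 and 1.34 in sgCtrl and 0.753, 0.849 and 0.629 in sgPrdx2 livers, lower in each of the latter. These ratios hold genes chosen for their rise and are a description.

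**Figure D3:**
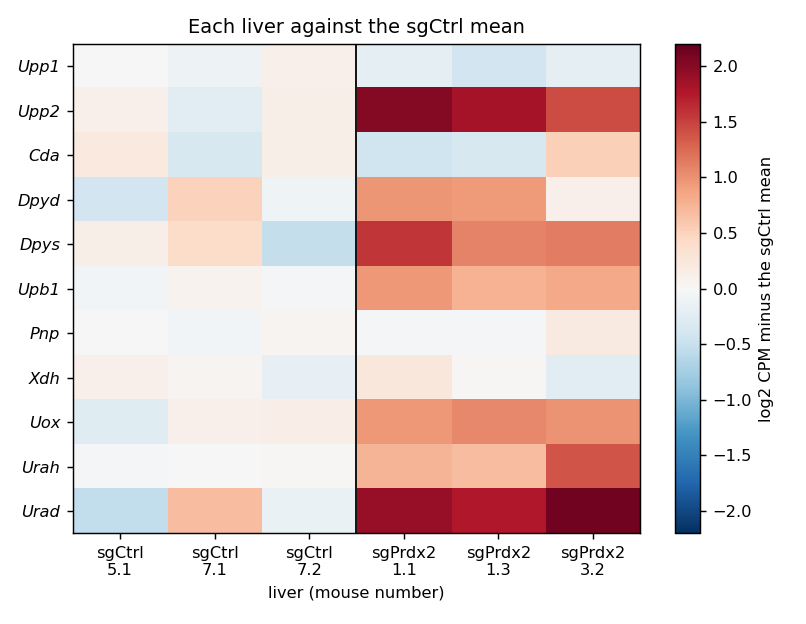
Log2 CPM (prior count 2) of each gene minus its mean in the sgCtrl livers, as color from blue (lower) to red (higher), for the 6 livers on the x axis and the 10 genes and Urad on the y axis. Upp2, Dpys, Upb1, Uox, Urah and Urad are higher in each sgPrdx2 liver than in any sgCtrl liver. Dpyd is above the sgCtrl mean in all 3 sgPrdx2 livers, but within the sgCtrl range in liver 3.2. That liver has the lowest Upp2 and the highest Urah of the sgPrdx2 group.

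Other genes of nucleotide metabolism were read from 6 lists. Of 73 tested genes, 7 were called (9.59%), 3 higher and 4 lower. Over all genes tested 3.33% were called, 1.79% higher and 1.54% lower. In pyrimidine breakdown none of 9 genes was called, at a median log2 fold change of 0.49. Its smallest p-values belonged to Dctd, the dCMP deaminase (log2 fold change -1.08, SE 0.30, adjusted p = 0.0872), and Agxt2, an aminotransferase that acts on beta-aminoisobutyrate (0.72, SE 0.21, adjusted p = 0.0925). DESeq2 called both, along with Abat.

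In purine breakdown 1 of 13 tested genes was called higher and 1 lower. Urad, the enzyme after Urah on the way to allantoin, was at 2.24, 5.25 and 2.95 CPM in sgCtrl and at 12.5, 11.2 and 14.4 CPM in sgPrdx2 livers (log2 fold change 1.87, SE 0.30, adjusted p = 0.0366). Its groups did not overlap. Ampd3, an AMP deaminase, fell by 0.75 on the log2 scale (SE 0.16, adjusted p = 0.0480). Over the 22 tested breakdown genes of both lists the median log2 fold change was 0.10, and 13 had a value above 0. Ampd1, Allc, Nt5c1a and Nt5c1b had 0 to 3 reads in all livers together and were not tested.

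In salvage, 1 of 13 genes was called. Cmpk2, a mitochondrial nucleotide kinase, fell by 1.06 on the log2 scale (SE 0.22, adjusted p = 0.0491), and the deoxycytidine kinase Dck had a value of -0.75 (SE 0.23, adjusted p = 0.109). DESeq2 called both, along with Adk. In purine synthesis none of 14 was called by edgeR, and the smallest p-values belonged to Impdh1 (-0.56, SE 0.15, adjusted p = 0.0779) and Paics (0.27, SE 0.13, adjusted p = 0.243), while DESeq2 called Impdh1. In pyrimidine synthesis Ctps, which makes CTP from UTP, fell by 0.89 on the log2 scale (SE 0.18, adjusted p = 0.0466). Of 13 transporters the equilibrative nucleoside transporters Slc29a1 and Slc29a3 were called, the former higher (0.64, SE 0.13, adjusted p = 0.0480) and the latter lower (-0.72, SE 0.14, adjusted p = 0.0416). DESeq2 called these and also Slc2a9, Slc17a3, Slc22a7, Slc28a2 and Slc43a3.

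The summed levels of markers differed between the groups for some liver cell types. All 14 tested hepatocyte markers had a log2 fold change above 0 (median 0.95), and 6 were called higher, beside 1.79% of all genes. The groups of 11 did not overlap, with sgPrdx2 higher, beside 16.7% of all genes. The summed level of the 14 markers was 81283 to 88013 CPM in sgCtrl and 138949 to 180294 CPM in sgPrdx2 livers. Most of this sum came from Alb, which had a value of 0.97 (SE 0.20, adjusted p = 0.0472). All 11 tested macrophage markers had a value below 0 (median -0.40), and 1 was called lower, beside 1.54% of all genes. The groups of 3 did not overlap, with sgPrdx2 lower, beside 17.5% of all genes. The macrophage sum was 3365 to 3838 against 2347 to 3129 CPM. Most of it came from Lyz2, at a mean of 2012 CPM in sgCtrl and 1602 CPM in sgPrdx2 livers, with overlapping groups. The sum over 8 endothelial markers was 389 to 410 against 296 to 361 CPM, over 8 stellate and fibroblast markers 1971 to 2193 against 1408 to 1481 CPM, and over 6 cholangiocyte markers 1630 to 1858 against 1217 to 1393 CPM. Of these, 1 endothelial, 0 stellate and fibroblast and 0 cholangiocyte markers were called, all lower, beside 1.54% of all genes. Their groups did not overlap, with sgPrdx2 lower, for 5, 5 and 3 markers, beside 17.5% of all genes. Most of the cholangiocyte sum came from Spp1, at a mean of 1578 CPM in sgCtrl and 1150 CPM in sgPrdx2 livers. The sums of T and B cell markers (28.5 to 37.8 against 27.8 to 38.2 CPM), neutrophil markers (7.04 to 13.0 against 8.43 to 11.9 CPM) and red blood cell markers (156 to 200.3 against 189 to 257 CPM) overlapped. Of the 5 red blood cell markers tested, 4 had a log2 fold change below 0, while Alas2 had 0.997 (SE 0.28, adjusted p = 0.0872). The neutrophil gene Ly6g had 2 reads in all. In bulk tissue fewer cells of a type and less RNA per cell cannot be told apart.

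Set beside the hepatocyte markers, Upp2 had a larger log2 fold change than all 14, Dpys than 10, Uox and Urah than 9 each, Upb1 than 6 and Dpyd than 5. All 14 were above Pnp, Xdh, Cda and Upp1. Because Upp2, Uox and Urah were chosen for their rise in this comparison, their places in this order are a description only. With the counts scaled to these 14 markers, an alternative added after seeing the data, the log2 fold change was 0.80 for Upp2, 0.29 for Dpys, 0.05 for Uox, 0.01 for Urah, -0.10 for Upb1 and -0.22 for Dpyd. Neither Dpys (adjusted p = 0.291) nor Upb1 (adjusted p = 0.657) passed on this scale, on which the median of all genes was -0.97, whereas Upp1 (-1.25, adjusted p = 9.88e-04), Xdh (-0.94, adjusted p = 0.00234), Cda (-1.03, adjusted p = 0.00499) and Pnp (-0.91, adjusted p = 0.00164) were called lower.

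**Figure D4:**
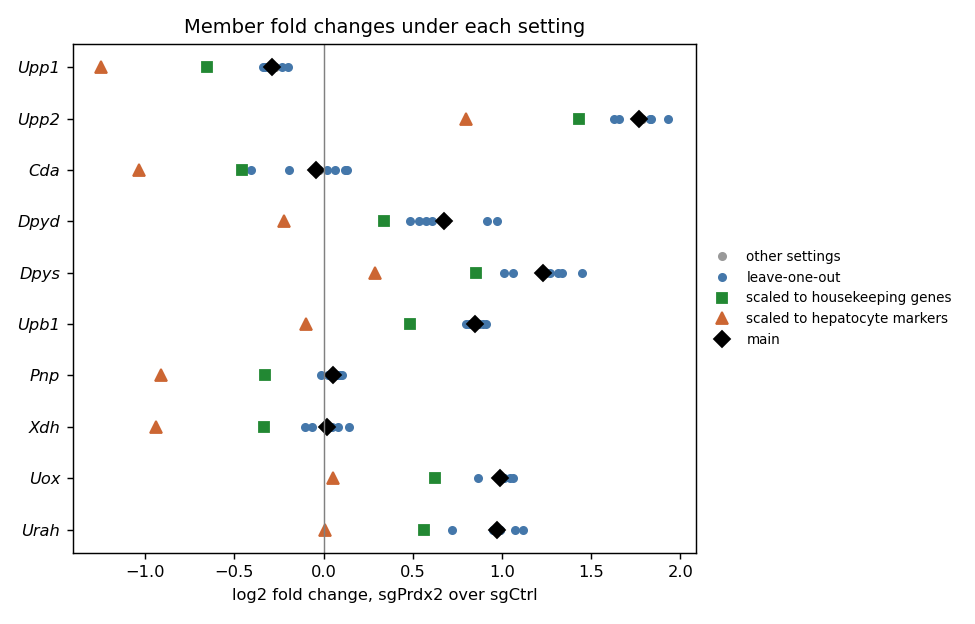
Log2 fold change (x axis, sgPrdx2 over sgCtrl) of the 10 genes (y axis) in the reported fit (diamond), without 1 liver (blue), scaled to 6 housekeeping genes (green square), scaled to 14 hepatocyte markers (orange triangle) and in other settings (grey, mostly under the diamond). Upp2 and Dpys stay above 0 throughout, at no less than 0.80 and 0.29, and Uox and Urah end near 0 on the hepatocyte scale. Upp2, Uox and Urah were chosen for their rise.

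For likeness of pattern over the 6 livers, 14113 genes other than the 10 were ranked by Pearson's r of log2 CPM. The 3 genes closest to Upp2 were AC161590.1, Cd59a and Psmf1 (r = 0.990, 0.990 and 0.988). Those closest to Uox were Chrm1, mt-Cytb and Rcl1 (r = 0.995, 0.991 and 0.991), and those closest to Urah were Apoa1, a hepatocyte marker, Ptms and Mpdu1 (r = 0.998 each). As many as 62, 205 and 668 genes reached an r above 0.95 with Upp2, Uox and Urah, and all r values share the same 6 libraries and 2 groups.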

How the data were processed

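The authors deposited whole-number counts of reads per gene symbol for 6 mouse livers, without normalization. The submitters' processing notes list HISAT2, HTSeq, DESeq2 and the build GRCm38, and their versions and the strand setting are not given in the sources used here. A second deposited table, of the authors' own DESeq2 means, fold changes and p-values, was not used. Counts were analyzed in R 4.3.3 with edgeR 4.0.16 (filterByExpr with a minimum count of 10, TMM, two-sided quasi-likelihood test, Benjamini-Hochberg adjustment over 17032 genes, called at an adjusted p under 0.05, no covariate). The biological coefficient of variation was 0.213. Members, lists and the rule for named genes were chosen with earlier results of these data known. The rule named the 10 members, Prdx2, called genes of 6 lists, the 2 smallest p-values per list and the 3 genes most like Upp2, Uox and Urah (mean of at least 1 CPM). Lengths, exons and 50-base stretches come from the GENCODE M21 annotation of GRCm38, which matched 48108 of 52459 symbols and may differ from that of the counts. Tested on simulated data for 16853 genes, edgeR recovered 198 of 200 genes changed 4-fold among 211 calls, and DESeq2 1.42.0 recovered 196 among 238. The changed genes had a mean of at least 1 CPM, and the recovery of smaller changes was not tested. The alternatives were RLE, upper-quartile, housekeeping and hepatocyte marker scaling, DESeq2, no or a stricter filter, and leaving out each liver. A result on 1 gene of these lists is not reported here, although it was tested and counted with the others.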

Additional observations from a re-analysis of the deposited data

How the results depend on the processing

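Directions and calls were compared over 13 alternatives, with calls by edgeR unless named. Scaling to the 6 housekeeping genes moved the median of all genes to -0.38 and left 0 of the 7 other members called (Dpys adjusted p = 0.106, Upb1 adjusted p = 0.0974; DESeq2 called both), with a log2 fold change of -0.34 for Xdh and -0.33 for Pnp and a median of -0.27 over the other breakdown genes. Scaling to the hepatocyte markers called 4 of the 7, all lower, and 60 of the wider genes, with that median at -0.86 and with values of -0.22 for Dpyd, -0.10 for Upb1, -0.94 for Xdh and -0.91 for Pnp. DESeq2 called 18 wider genes instead of 7. Without 1 liver, 0 to 2 of the 7 members and 0 to 6 of the wider genes were called, and log2 fold changes ran from -0.10 to 0.14 for Xdh, from -0.41 to 0.13 for Cda and from -0.016 to 0.11 for Pnp. Over all genes, 567 were called, against 2118 by DESeq2, 989 with housekeeping scaling, 13136 with hepatocyte scaling, 1128 without a filter and 0 to 619 without 1 liver. The cause of these changes was not tested. RLE and upper-quartile normalization and both filters kept the number of called members at 2. No paired analysis was possible because the groups share no mouse numbers. The lowest count of the 10 genes in any liver was 137 (Upp1), and an effect of depth was not tested.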
